A study of Mus musculus with 22 samples.

Results

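The switch between fetal and adult isoforms of the sarcomere was followed through 9 genes: Acta1, Actc1, Myh6, Myh7, Myh7b, Tnni1, Tnni3, Mybpc2 and Mybpc3. They were chosen by symbol and were among 47069 genes listed for the CASK and SAP97 comparisons and 49671 for the MDX comparison. RNA of dissociated ventricular cardiomyocytes was sequenced from male mice, each library from a separate mouse, and 21 of the 22 libraries were used. The first MDX library, which had few reads, was left out, a choice also made in the study.

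CASK is a membrane-associated guanylate kinase that partners ion channels, SAP97 (Dlg1) is a scaffold of the same family, and MDX mice lack dystrophin. The 3 CASK KO mice carried MHC-Cre and floxed CASK and were 10.1 to 11.3 weeks old, and the 3 CASK control mice carried MHC-Cre alone and were 11.0 to 12.7 weeks old. The 3 SAP97 KO mice carried MHC-Cre and floxed SAP97 (10.7 to 13.0 weeks), while the 3 SAP97 control mice had floxed SAP97 and no Cre by the labels and the study's methods (10.6 to 13.0 weeks), although its listing of mapping metrics enters them with Cre. All 12 were of mixed background. In the MDX group (MDX -/-), replicates 2, 3 and 4 were C57Bl/6Ros and replicate 5 was mixed after backcrossing to C57Bl/6J. These 4 mice were 10.9 to 17.7 weeks old. The 5 MDX control mice were wild type, 4 of them C57Bl/6J or C57Bl/6 and replicate 5 mixed, at 10.9 to 14.7 weeks.

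The groups have limits as models. Cre is driven by the promoter of alpha-myosin heavy chain, which is itself the promoter of Myh6, so deletion is limited to cardiomyocytes. Cre was shared by both CASK groups but separated the SAP97 groups, strain separated most MDX mice from their controls, and MDX 4 was older than any of them. The libraries were also sequenced in more than one round, and the labels do not say which belong to which. The effect of the lost protein cannot be told apart from these, nor can line or control group from sequencing round. In dissociated cells, fewer cells of a type and less RNA per cell also cannot be told apart.

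The sarcomere of the heart is built from proteins that come in several isoforms, each from its own gene. In the mouse, the ventricle before birth carries more beta-myosin heavy chain, slow skeletal troponin I and skeletal alpha-actin than the adult ventricle, in which alpha-myosin heavy chain, cardiac troponin I and cardiac alpha-actin dominate. Return of the early isoforms is a well-known feature of cardiac stress and hypertrophy. Myosin-binding protein C is also made in a cardiac (Mybpc3) and a fast skeletal form (Mybpc2).

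The promoters of 5 members are shown because Acta1, Mybpc2 and Myh7 had the lowest p-values of the tested members over the 6 groups, while Actc1 and Myh6 are the adult partners of the actin and myosin pairs. Each is the 250 bases before the RefSeq start on GRCm38.p6, written 5′ to 3′ on the strand of the gene. Capitals mark a CArG box, the motif known for binding serum response factor, and CATTCC or its reverse complement GGAATG, the core of the MCAT element known for binding TEAD factors.
Acta1 promoter, chr8:123894776-123895025, minus strand: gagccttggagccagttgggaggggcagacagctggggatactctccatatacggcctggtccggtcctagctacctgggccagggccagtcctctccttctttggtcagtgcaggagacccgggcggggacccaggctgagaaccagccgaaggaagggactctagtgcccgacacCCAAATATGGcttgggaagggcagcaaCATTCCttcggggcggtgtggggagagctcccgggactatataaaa
Actc1 promoter, chr2:114052876-114053125, minus strand: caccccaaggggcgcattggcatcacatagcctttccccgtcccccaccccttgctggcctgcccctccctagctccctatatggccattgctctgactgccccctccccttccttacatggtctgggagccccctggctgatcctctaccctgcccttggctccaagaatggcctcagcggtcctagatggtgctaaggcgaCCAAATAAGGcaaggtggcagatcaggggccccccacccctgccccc
Mybpc2 promoter, chr7:44524670-44524919, minus strand: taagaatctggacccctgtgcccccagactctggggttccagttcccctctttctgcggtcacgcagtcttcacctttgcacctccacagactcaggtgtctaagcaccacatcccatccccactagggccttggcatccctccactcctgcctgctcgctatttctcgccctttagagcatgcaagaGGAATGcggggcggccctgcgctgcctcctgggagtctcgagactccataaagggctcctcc
Myh7 promoter, chr14:54994627-54994876, minus strand: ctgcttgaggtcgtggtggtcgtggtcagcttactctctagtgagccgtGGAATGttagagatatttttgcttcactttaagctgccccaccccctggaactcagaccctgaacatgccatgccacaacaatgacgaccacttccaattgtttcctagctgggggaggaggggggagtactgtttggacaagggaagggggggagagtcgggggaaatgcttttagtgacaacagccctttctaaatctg
Myh6 promoter, chr14:54966608-54966857, minus strand: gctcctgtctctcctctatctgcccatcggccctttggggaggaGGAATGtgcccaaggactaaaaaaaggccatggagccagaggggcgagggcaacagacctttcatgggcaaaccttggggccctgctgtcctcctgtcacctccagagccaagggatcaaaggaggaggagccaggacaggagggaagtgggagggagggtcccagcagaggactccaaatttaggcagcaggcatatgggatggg

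Among all 9 members, a CArG box was found in Acta1 (-73 to -64 from the start) and Actc1 (-47 to -38). Of 32851 promoters of this length, 1.47% held one. CATTCC on either strand was found in Acta1 (-46 to -41), Mybpc2 (-62 to -57), Myh7 (-201 to -196) and Myh6 (-206 to -201), against 12.6% of all promoters. For Myh7 it lay before the upstream of its annotated starts only. In no member did the motifs overlap. No match to either was found in the windows of Myh7b, Tnni1, Tnni3 and Mybpc3. A match is a string of letters, not a measured binding site.

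The 3 myosin heavy chain genes also share a feature inside their introns: each carries a microRNA. These mature sequences from RefSeq (GRCm38.p6) are shown with the seed, bases 2 to 8, in capitals. The mature forms were not measured here, since short inserts were removed from the libraries.
mmu-miR-208a-3p, from Myh6: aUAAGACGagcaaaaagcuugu
mmu-miR-208b-3p, from Myh7: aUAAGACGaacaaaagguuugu
mmu-miR-499-5p, from Myh7b: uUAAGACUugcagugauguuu

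The seeds of miR-208a-3p and miR-208b-3p, from Myh6 and Myh7, were the same. Myh6 and Myh7 lie in tandem on the minus strand of chromosome 14 (Myh6 54941921 to 54966927, Myh7 54970684 to 54994626, GENCODE vM21 on GRCm38), 3756 bases apart. Their transcripts were 90.5% identical over 6062 aligned bases, and 11.2% of the 100-base windows of Myh7 were found unchanged in Myh6 (5.43% of 150-base windows). Reads from such windows may have been given to either gene or to none, so the level of Myh7 is uncertain in that respect. For the other 3 pairs no window of 100 bases was shared, with identities of 82.0% for Acta1 and Actc1, 67.5% for Tnni1 and Tnni3 and 67.1% for Mybpc2 and Mybpc3.

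Libraries held 24253610 to 42159185 counts. Markers of ventricular cardiomyocytes (Myl2, Ryr2, Pln, Actn2, Tnnt2 and Atp2a2) summed to 24510 to 41230 CPM (counts scaled to a common library total), against 29.8 to 531 CPM for 5 atrial markers. Fast skeletal muscle markers other than Ckm, which heart also makes, summed to 0.876 to 4.89 CPM over 6 genes, and Myh1 and Myh4 had a median of 0 CPM. Levels below are CPM scaled by TMM over the 21 libraries. Where genes are compared with each other, levels are CPM per kilobase of summed exon length (CPM/kb).

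In every library the adult partner was the more abundant of each pair. Myh6, the alpha-myosin heavy chain, was 41.5 to 181 times as abundant per kilobase as Myh7, the beta-myosin heavy chain. Summed exons came to 8586 bases for Myh7 and 6347 for Myh6, against 6230 and 6113 bases in the transcripts compared above. Per base of transcript this fold would be smaller. Mybpc3 exceeded Mybpc2 by 40.1 to 235 times. Actc1, the cardiac alpha-actin, exceeded Acta1, the skeletal alpha-actin, by 2.58 to 106 times, the widest span of the 3 well-measured pairs. Tnni1, the slow skeletal troponin I, was close to absent, with 1 to 17 counts per library, against 20720 to 123864 counts for Tnni3, the cardiac troponin I.

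**Figure D1:**
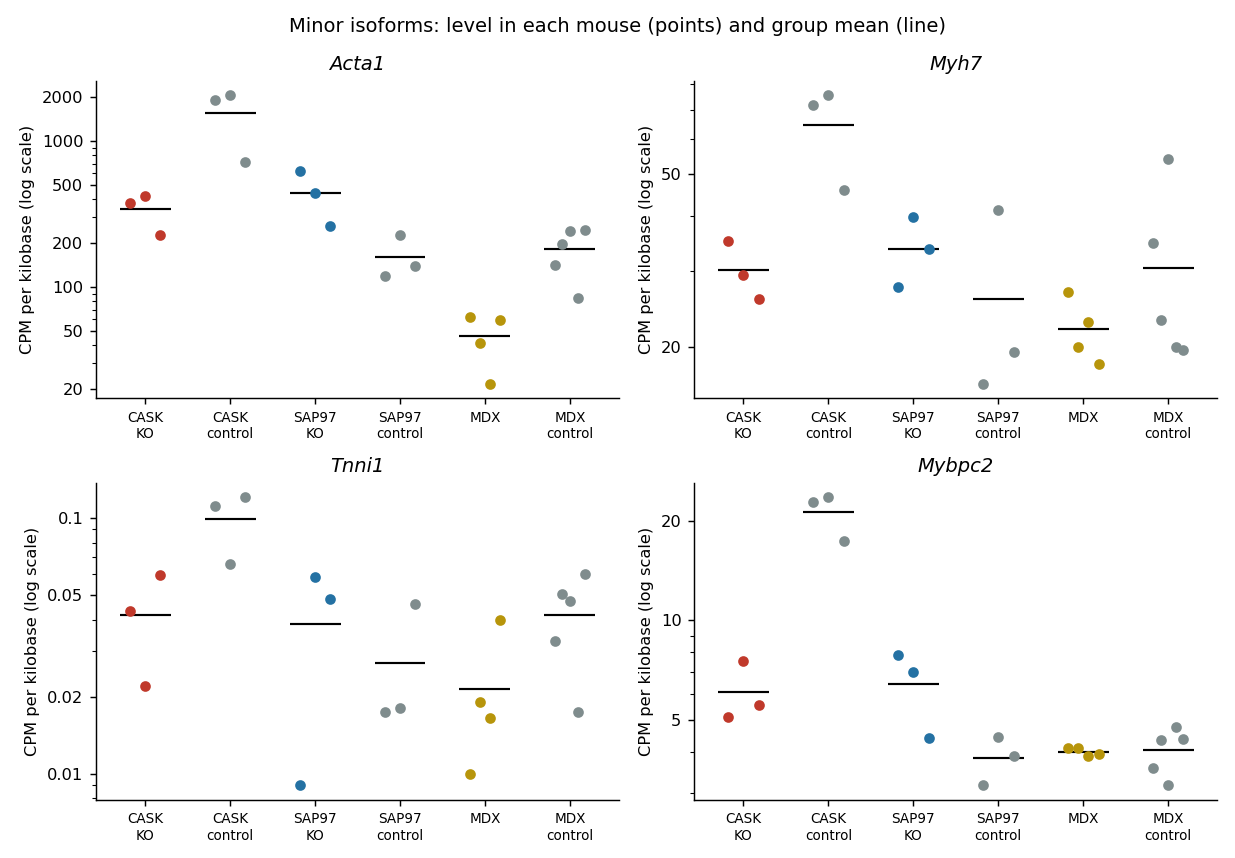
Levels of Acta1, Myh7, Tnni1 and Mybpc2 in CPM per kilobase on a log scale, with 1 point per mouse and a line at the mean of each of the 6 groups. The mean of CASK control mice is the highest for all 4 genes, and MDX mice are lowest for Acta1, all 4 of them at 62.6 CPM/kb or less.

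Among the 4 minor isoforms, Acta1 and Mybpc2 differed across the 6 groups beyond the spread between mice (adjusted p = 4.53e-06 and 6.54e-08, edgeR quasi-likelihood test of 21 libraries), while Myh7 did not pass in edgeR (adjusted p = 0.0539) but did in DESeq2 (adjusted p = 0.00222). At an adjusted p of 0.01, 2.08% of the 15985 genes tested passed. For Acta1, the highest mean was that of CASK control mice (1563 CPM/kb), followed by SAP97 KO (442), CASK KO (342), MDX control (182), SAP97 control (161) and MDX mice (46.2). The ranges of the first and second of these groups, and of the last 2, did not overlap, and those of the other neighbours did. Mybpc2 had the order CASK control (21.3 CPM/kb), SAP97 KO (6.43), CASK KO (6.06), MDX control (4.05), MDX (4.01) and SAP97 control (3.83), with ranges apart between CASK control and SAP97 KO and between CASK KO and MDX control mice. The second gap was narrow, from 5.12 CPM/kb in CASK KO 1 to 4.76 CPM/kb in MDX control 4. Counts of Mybpc2 in the CASK and SAP97 libraries came to 14599 and 13579 under 2 annotation releases. Their ratio of 1.075 is close to the size of this gap. Which release the MDX counts used is not settled, and the part of release in the gap was not tested.

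Myh7 averaged 64.5 CPM/kb in CASK control mice, apart from the next group, SAP97 KO, at 33.6 CPM/kb, although MDX control 3 (54.1 CPM/kb) lay inside its range of 45.9 to 75.5 CPM/kb. The means of MDX control, CASK KO, SAP97 control and MDX mice lay between 22.01 and 30.4 CPM/kb with ranges that overlapped from neighbour to neighbour. Tnni1 was highest in CASK control mice (0.0992 ± 0.0290 CPM/kb, SD, n = 3), whose range was apart from all other groups, but its low counts kept it out of the test.

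Group means of the adult isoforms were closer together. None of Actc1, Myh6, Tnni3 and Mybpc3 passed the test over 6 groups (adjusted p = 0.492, 0.990, 0.712 and 0.538, edgeR), nor did Myh7b, an ancient myosin heavy chain known for giving little protein in mammalian heart (adjusted p = 0.432). Group means of Myh6 ran from 2854 to 3122 CPM/kb, those of Actc1 from 3272 to 4866, those of Tnni3 from 946 to 1525 and those of Mybpc3 from 703 to 1007. For Actc1, Myh6 and Tnni3 every group overlapped its neighbour in the order of means. CASK control mice were highest for Mybpc3, with a range apart from that of CASK KO mice, and lowest for Myh7b, at 5.25 CPM/kb, below the range of every other group.

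**Figure D2:**
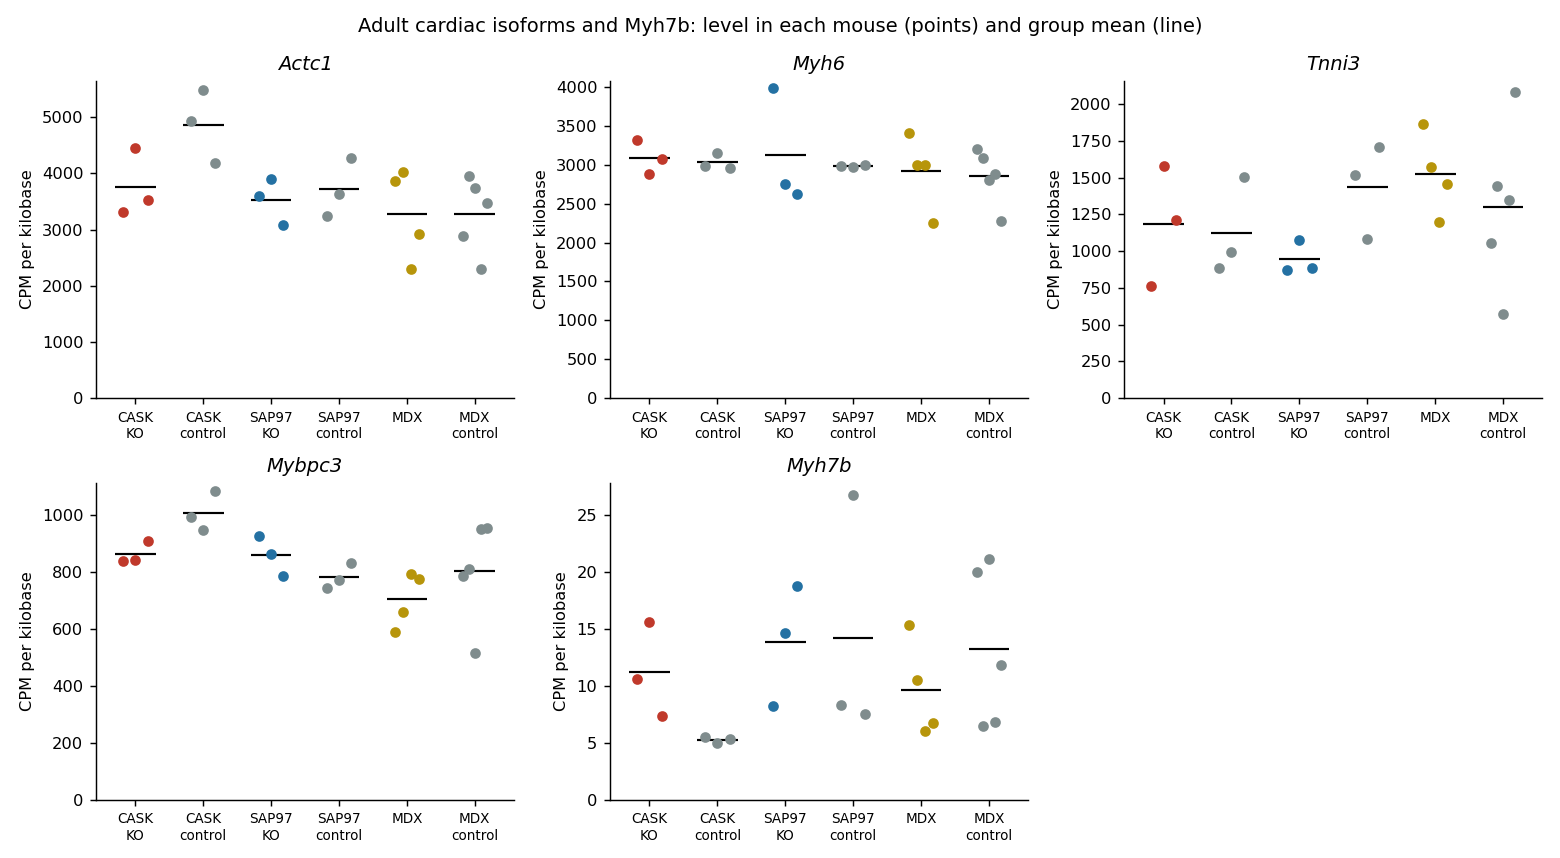
Levels of Actc1, Myh6, Tnni3, Mybpc3 and Myh7b in CPM per kilobase on linear axes from 0, with 1 point per mouse and a line at each group mean. Myh6 means stay between 2854 and 3122 CPM/kb, while 1 SAP97 control mouse and 2 MDX control mice stand high for Myh7b.

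The first comparison asked what changed in cardiomyocytes without CASK. Acta1, Mybpc2 and Myh7 were lower and Myh7b was higher in CASK KO than in CASK control mice, by 4.57, 3.50, 2.15 and 2.13 times in mean CPM. None of these passed an adjusted p of 0.01 in the unpaired edgeR test. Acta1 and Mybpc2 did in an alternative that paired mice of the same number. The labels do not state such pairs, and its values are given because same-numbered CASK mice deviated together in these same data.

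Acta1 was at 378, 421 and 227 CPM/kb in CASK KO mice 1 to 3, against 1910, 2056 and 723 CPM/kb in CASK control mice 1 to 3. Every CASK KO mouse lay below every control, and replicate 3 was the lowest in both groups. The log2 fold change was -2.17 ± 0.42 (SE, adjusted p = 0.208, edgeR). Paired by number it was -2.08 ± 0.19 (adjusted p = 0.00768), and DESeq2 without pairing also called it (adjusted p = 2.51e-06).

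Mybpc2 was at 5.12, 7.53 and 5.55 CPM/kb in CASK KO mice, against 22.8, 23.6 and 17.3 CPM/kb in CASK control mice. The groups were far apart relative to the spread within them, and the log2 fold change was -1.79 ± 0.20 (SE, adjusted p = 0.0971, edgeR; paired -1.79 ± 0.15, adjusted p = 0.00551; DESeq2 adjusted p = 4.62e-12). Its partner Mybpc3, mutations of which are a common cause of hypertrophic cardiomyopathy in humans, also had ranges that did not overlap, at 838 to 906 CPM/kb in CASK KO and 947 to 1083 CPM/kb in CASK control mice. This was a far smaller difference, with a log2 fold change of -0.20 ± 0.19 (adjusted p = 0.844).

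Myh7 was at 35.1, 29.2 and 25.8 CPM/kb in CASK KO mice, against 72.0, 75.5 and 45.9 CPM/kb in CASK control mice. Again no values overlapped, and the log2 fold change was -1.08 ± 0.24 (adjusted p = 0.244, edgeR; paired adjusted p = 0.0435; DESeq2 adjusted p = 0.00116). For its partner Myh6 the log2 fold change was 0.05 ± 0.24 (adjusted p = 0.975), with overlapping ranges.

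Myh7b went the other way from Myh7. It was at 10.6, 15.6 and 7.37 CPM/kb in CASK KO mice, against 5.47, 4.99 and 5.30 CPM/kb in CASK control mice, with no overlap (log2 fold change 1.11 ± 0.25, adjusted p = 0.268, edgeR; paired adjusted p = 0.0963; DESeq2 adjusted p = 0.00863). Tnni1 had 6, 3 and 8 counts in CASK KO mice, against 17, 8 and 16 counts in CASK control mice, and was not tested in edgeR (DESeq2 adjusted p = 0.680). Actc1 and Tnni3 had log2 fold changes of -0.35 ± 0.23 and 0.09 ± 0.32, with overlapping groups.

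Counted over the 8 members with enough reads to test, 0 passed an adjusted p of 0.01 in either direction in edgeR, as did 0.0% of 14963 genes. With pairing, Acta1 and Mybpc2 were called lower (0.0468% of all genes), and 0 of 8 members were called higher (0.0267% of genes). At an unadjusted p under 0.05, edgeR had 3 of 8 lower and 1 of 8 higher, against 4.31% and 4.53% of all genes, and DESeq2 called the same 4 genes (0.530% of genes lower and 0.214% higher). The groups did not overlap for 4 of 8 members that were lower and 1 that was higher in CASK KO, against 8.43% and 6.06% of all genes. Beside these results, 5 atrial markers summed to 29.8 to 68.6 CPM in CASK KO mice and to 224 to 531 CPM in CASK control mice. This was mostly Nppa, as the other 4 summed to 3.51 to 30.9 and 4.82 to 64.4 CPM, and the part of atrial genes in the result was not tested. Sums of the skeletal muscle markers other than Ckm overlapped, at 2.21 to 2.61 CPM in CASK KO and 2.09 to 3.90 CPM in CASK control mice.

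**Figure D3:**
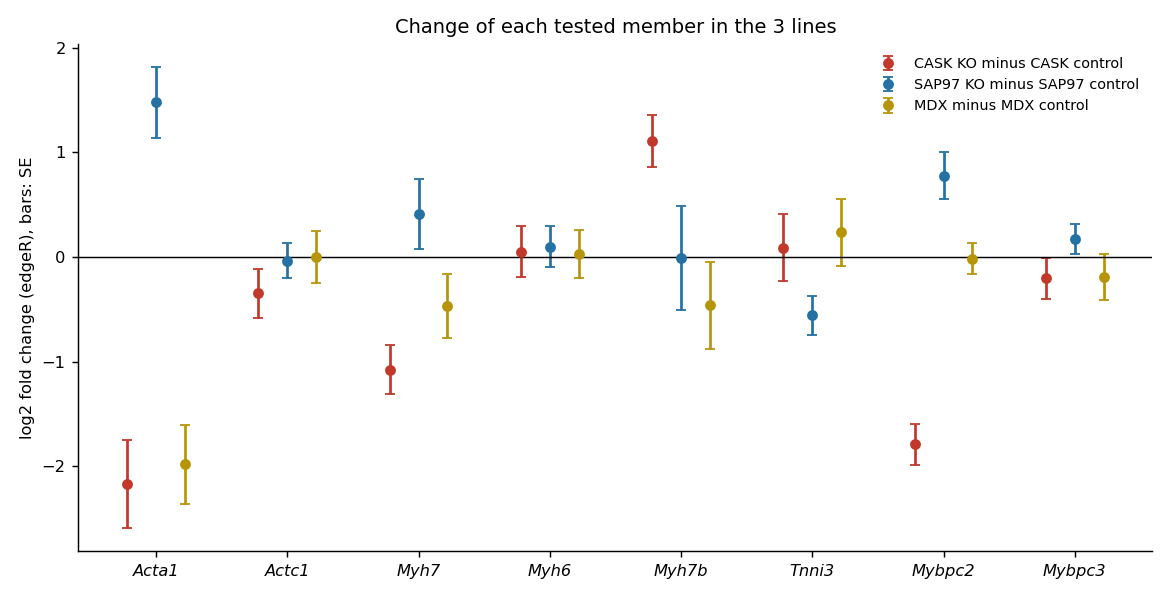
Log2 fold changes (edgeR) of the 8 tested members in CASK KO minus CASK control, SAP97 KO minus SAP97 control and MDX minus MDX control, with bars of 1 SE. Acta1 is at -2.17, 1.48 and -1.98 in the 3 lines, Mybpc2 at -1.79, 0.77 and -0.02, and Myh6 within 0.10 of 0 in all.

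In the SAP97 line Acta1 stood on the other side of its controls. It was at 622, 441 and 262 CPM/kb in SAP97 KO mice, against 118, 227 and 139 CPM/kb in SAP97 control mice, 2.74 times as high in the mean and with no overlap. The log2 fold change was 1.48 ± 0.34 (adjusted p = 0.390, edgeR; DESeq2 adjusted p = 0.000245). The nearest pair of mice, SAP97 KO 3 and SAP97 control 2, were 262 and 227 CPM/kb.

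Mybpc2 was at 7.86, 7.003 and 4.41 CPM/kb in SAP97 KO mice, against 3.17, 4.45 and 3.88 CPM/kb in SAP97 control mice, and SAP97 KO 3 fell within the control range. The log2 fold change was 0.77 ± 0.22 (adjusted p = 0.562, edgeR). Tnni3, the inhibitory subunit of cardiac troponin, was at 875, 1077 and 886 CPM/kb in SAP97 KO mice, against 1516, 1085 and 1707 CPM/kb in SAP97 control mice. These ranges barely missed each other, and the log2 fold change was -0.56 ± 0.19 (adjusted p = 0.610).

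Myh7 and Myh7b had wide and overlapping ranges in this line. Myh7 was at 27.6 to 39.8 CPM/kb in SAP97 KO and 16.5 to 41.4 CPM/kb in SAP97 control mice (log2 fold change 0.41 ± 0.34). Myh7b was at 8.18 to 18.8 CPM/kb in SAP97 KO and 7.53 to 26.7 CPM/kb in SAP97 control mice (-0.01 ± 0.50). SAP97 control 2 was the highest control for both. Actc1, Myh6 and Mybpc3 had log2 fold changes of -0.04, 0.10 and 0.17, each with overlapping groups, and Tnni1 had 1 to 6 counts in SAP97 KO and 2 to 5 in SAP97 control mice.

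In edgeR, 0 of 8 members were called in the SAP97 line, where 0.00679% of 14722 genes were called higher and 0.0136% lower. At an unadjusted p under 0.05, 2 of 8 were higher (Acta1 and Mybpc2) and 1 was lower (Tnni3), against 4.69% and 3.28% of all genes, and DESeq2 called Acta1 alone (0.157% of genes higher). Groups did not overlap for 1 of 8 members higher and 1 lower in SAP97 KO, against 6.07% and 6.85% of all genes. Ventricular markers summed to 25350 to 30410 CPM in SAP97 KO and 31980 to 39820 CPM in SAP97 control mice, and smooth muscle markers, Acta2 among them, to 122 to 152 and 84.4 to 100.1 CPM. Skeletal muscle markers other than Ckm summed to 1.41 to 2.20 CPM in SAP97 KO and 0.876 to 1.36 CPM in SAP97 control mice, and atrial markers to 71.0 to 81.2 and 43.0 to 62.7 CPM (without Nppa, 1.72 to 50.4 and 34.4 to 50.5 CPM, which overlapped). None of the other sums named here overlapped between the groups, and their part in the result was not tested.

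In the MDX line the groups were apart for a single tested member, Acta1. It was at 62.6, 41.2, 21.7 and 59.2 CPM/kb in MDX mice 2 to 5, against 142, 196, 243, 84.5 and 245 CPM/kb in MDX control mice 1 to 5. No values overlapped, the mean in MDX was 25.4% of that in MDX control mice, and the log2 fold change was -1.98 ± 0.38 (adjusted p = 0.334, edgeR; DESeq2 adjusted p = 8.22e-05). MDX 4 and MDX control 4 were the lowest of their groups.

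The skeletal myosin-binding protein did not follow Acta1 here. Mybpc2 was at 4.10, 4.10, 3.90 and 3.94 CPM/kb in MDX mice, inside the control range of 3.18 to 4.76 CPM/kb (log2 fold change -0.02 ± 0.15, adjusted p = 1.00). Myh7 had a log2 fold change of -0.47 ± 0.31, with 18.3 to 26.8 CPM/kb in MDX and 19.7 to 54.1 CPM/kb in MDX control mice, of which MDX control 3 was the highest. Myh7b, Mybpc3, Myh6, Actc1 and Tnni3 had log2 fold changes of -0.46, -0.19, 0.03, 0.00 and 0.23, all with overlapping groups, and Tnni1 had 1 to 4 counts in MDX and 2 to 6 in MDX control mice.

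Again 0 of 8 members passed an adjusted p of 0.01 in edgeR, as did 0.0% of 14994 genes, and DESeq2 called Acta1 (0.0639% of genes lower and 0.0373% higher). At an unadjusted p under 0.05, 1 of 8 was lower and 0 higher, against 1.44% and 1.28% of genes, and the groups did not overlap for the same gene, against 0.647% of genes. For Acta1 the log2 fold change was much the same, and likewise not called, without the mixed-background mice (-2.02, adjusted p = 0.410) and with a term for mice 4 and 5 (-1.96, adjusted p = 0.410, edgeR). The sums of all 8 marker lists overlapped between the MDX groups.

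Ratios within a library, which need no scaling between libraries, were then compared. Counts per kilobase were used with a pseudocount of 0.5 counts, and differences of mean log2 ratios were tested by 2-sided exact permutation over mice. The size of a ratio depends on the summed exon lengths used, but its log2 difference between groups does not. With 3 against 3 mice the smallest p such a test can give is 0.1, so a ratio in the CASK and SAP97 lines could not pass 0.05. With 4 against 5 the smallest is 0.0159. In all, 12 ratios were compared.

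The Acta1 to Actc1 ratio was 11.4, 9.46 and 6.42% in CASK KO mice, against 38.7, 37.5 and 17.3% in CASK control mice. In the SAP97 line it was 17.3, 11.3 and 8.49% in SAP97 KO mice, against 3.66, 6.26 and 3.25% in SAP97 control mice. In the MDX line it was 1.62, 1.02, 0.948 and 2.02% in MDX mice, against 4.90, 4.95, 6.51, 3.68 and 7.06% in MDX control mice. In each line the groups did not overlap. The log2 differences were -1.73 ± 0.45 in CASK, 1.495 ± 0.42 in SAP97 and -1.98 ± 0.31 in MDX (SE, exact permutation p = 0.1, 0.1 and 0.0159, each the smallest possible, and 0.171 after adjustment over the 12 ratios).

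The Myh7 to Myh6 ratio was 0.838 to 1.06% in CASK KO mice, below the 1.55 to 2.41% of CASK control mice (log2 difference -1.11 ± 0.23, exact permutation p = 0.1). It overlapped in the other lines, at 0.691 to 1.45% in SAP97 KO and 0.554 to 1.39% in SAP97 control mice, and at 0.669 to 0.812% in MDX and 0.696 to 1.93% in MDX control mice (exact permutation p = 0.4 and 0.238). The Mybpc2 to Mybpc3 ratio was 0.610 to 0.896% in CASK KO mice, against 1.60 to 2.49% in CASK control mice (log2 difference -1.59 ± 0.27, exact permutation p = 0.1). It did not separate the SAP97 groups (0.58 ± 0.23, p = 0.2 by exact permutation) or the MDX groups (0.17 ± 0.14, p = 0.238 by exact permutation).

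The Tnni1 to Tnni3 ratio rested on few counts. It was at most 0.00563% in CASK KO and at least 0.00666% in CASK control mice (log2 difference -1.29 ± 0.66, exact permutation p = 0.1). The log2 difference was 0.87 ± 0.71 in SAP97 (exact permutation p = 0.3) and -1.21 ± 0.57 in MDX (exact permutation p = 0.0635), with overlapping groups. These differences rest on 1 to 17 counts of Tnni1 per library.

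**Figure D4:**
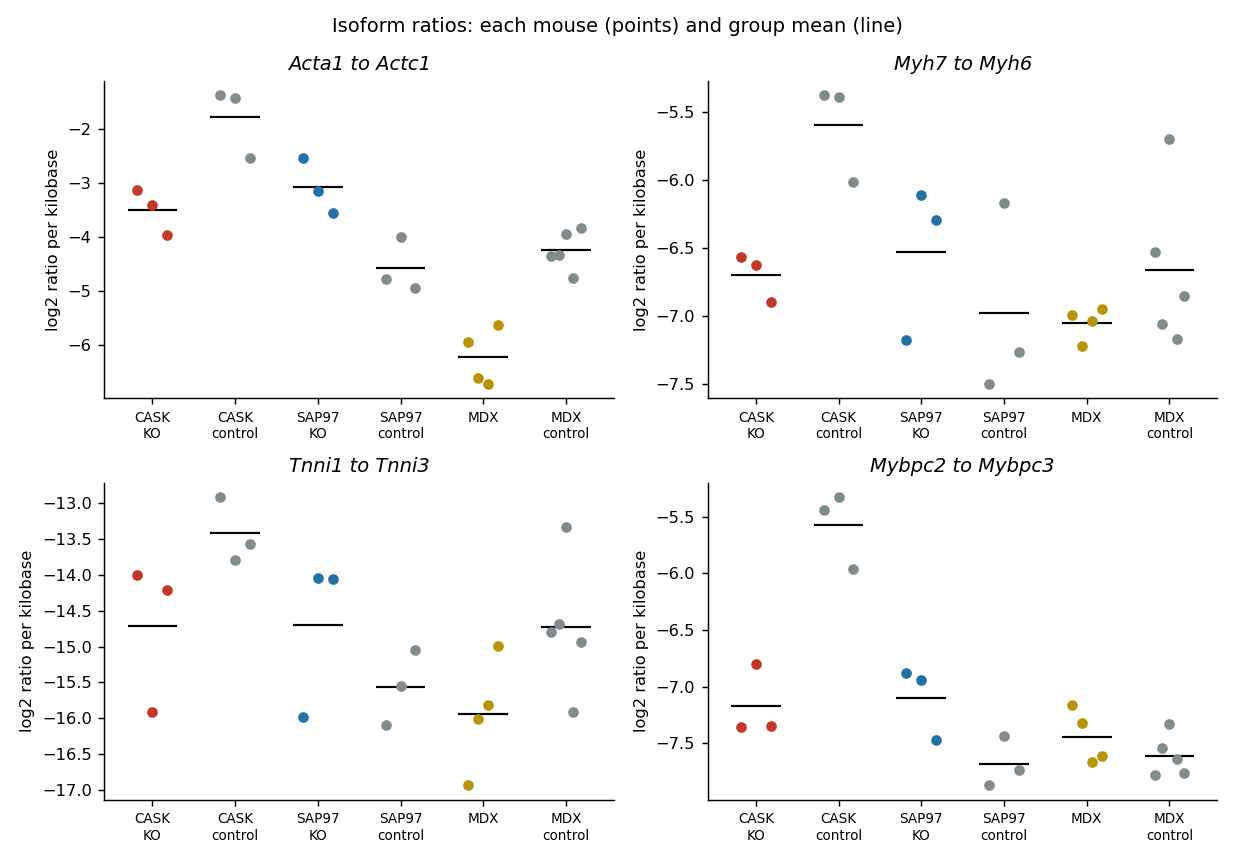
Log2 ratios of the minor to the adult isoform, per kilobase, for the 4 pairs, with 1 point per mouse and a line at each group mean. CASK KO mice lie below CASK control mice for all 4 ratios, and for Acta1 to Actc1 the MDX mice reach the lowest values, -6.72 to -5.63.

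Whether the lines differed in these changes was tested in a model of all 21 libraries. The difference of log2 fold changes, CASK minus SAP97, was -2.55 ± 0.30 for Mybpc2 (adjusted p = 9.05e-05) and -3.65 ± 0.66 for Acta1 (adjusted p = 0.00816, edgeR), the only 2 of 8 members called, both lower, against 0.225% of 15985 genes. For Myh7 it was -1.48 ± 0.51 (adjusted p = 0.324). The call for Acta1 was lost without any of 12 mice, namely each CASK and SAP97 mouse other than CASK control 3 and SAP97 KO 3, and also MDX 3 and MDX control 2, with adjusted p from 0.0120 to 0.0357. That for Mybpc2 was kept without each of the 21 mice in turn.

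For CASK minus MDX, Mybpc2 alone was called (-1.79 ± 0.27, adjusted p = 0.00288, edgeR, where 0.0751% of genes were called, 0.0438% lower and 0.0313% higher). Its call was lost without CASK KO 1, CASK KO 3, CASK control 1 or CASK control 2 (adjusted p = 0.0168 to 0.0228) and with the replicate block (0.0269). Acta1, lower than control in both lines, gave a difference of -0.21 ± 0.59 (adjusted p = 0.972). For SAP97 minus MDX, edgeR called 0 of 8 members, where 0.0% of genes were called higher and 0.00626% lower. At an unadjusted p under 0.05, 2 of 8 were higher, against 3.48% of genes, and DESeq2 called 1. The Acta1 difference of 3.43 ± 0.61 had an adjusted p of 0.0704 (edgeR), 0.00615 with the replicate block and 1.84e-05 in DESeq2.

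Control groups were also compared with each other. Acta1 was higher in CASK control than in SAP97 control mice by 3.28 ± 0.50 and than in MDX control mice by 3.10 ± 0.41 on the log2 scale (adjusted p = 0.000450 and 8.16e-05, edgeR). For Mybpc2 these were 2.47 ± 0.22 and 2.39 ± 0.18 (adjusted p = 7.12e-07 and 6.31e-08). For Myh7 they were 1.32 ± 0.36 and 1.09 ± 0.31 and did not pass (adjusted p = 0.0463 and 0.0498). Of all 15985 genes, 1.18% and 1.62% were called higher in CASK control mice in the 2 comparisons. Between SAP97 control and MDX control mice, both labelled without Cre, the 3 genes differed by -0.17 ± 0.41, -0.08 ± 0.19 and -0.23 ± 0.32 (adjusted p of 0.935, 0.934 and 0.873), and 0.169% of genes were called higher and 0.113% lower.

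Grouped by the labels, the 9 mice with MHC-Cre had 227 to 2056 CPM/kb of Acta1 and the 12 mice without it 21.7 to 245 CPM/kb, and 8 of the 9 lay above all 12. Mybpc2 had 4.41 to 23.6 CPM/kb with Cre and 3.17 to 4.76 CPM/kb without, again with 8 of 9 above all 12. The lowest of these 8 for Mybpc2 was CASK KO 1, whose gap to MDX control 4 is close to the release difference given above. For Myh7, 2 of 9 lay above all 12, and for Myh6, whose promoter drives Cre, 1 of 9 did. The count was 3 of 9 for Actc1 and for Tnni1, 2 of 9 for Mybpc3 and 0 of 9 for Myh7b and for Tnni3. How many of all genes split in this way was not counted. Cre and line cannot be told apart in this split, which also rests on SAP97 control mice being without Cre as labelled.

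Some members varied inside their groups together with a property of the library, the share of read pairs that fell on no annotated gene. This share was 4.24 to 12.6% in CASK KO and 3.17 to 5.73% in CASK control mice, 5.88 to 11.9% in SAP97 KO and 3.06 to 10.9% in SAP97 control mice, and 3.66 to 8.24% in MDX and 2.45 to 10.3% in MDX control mice. Across 21 libraries Myh7b was higher where the share was higher (Pearson r = 0.682, permutation p = 0.00087, adjusted over 9 members 0.00634; Spearman rho = 0.577, permutation p = 0.00784, adjusted 0.0353). Without the 2 libraries farthest from the median share r was 0.732, and after centring each group it was 0.648. Permutations here and below ran over all 21 libraries without regard to group, and no p was computed for r within groups.

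Tnni3 ran the opposite way (r = -0.652, permutation p = 0.00141, adjusted 0.00634; rho = -0.644, permutation p = 0.00214, adjusted 0.0193; -0.561 without the 2 farthest libraries; -0.717 within groups). Myh7 had r = 0.317 over all libraries (permutation p = 0.160, adjusted 0.359; rho = 0.430, permutation p = 0.0536, adjusted 0.148; r = 0.331 without the 2 farthest libraries) but 0.794 within groups. The other 6 members did not pass after adjustment, and within groups their r was -0.555 for Mybpc3, -0.421 for Mybpc2, -0.144 for Actc1, 0.182 for Myh6, 0.07 for Acta1 and 0.00 for Tnni1. The part of this property in the differences of Myh7b in CASK KO and Tnni3 in SAP97 KO was not tested.

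**Figure D5:**
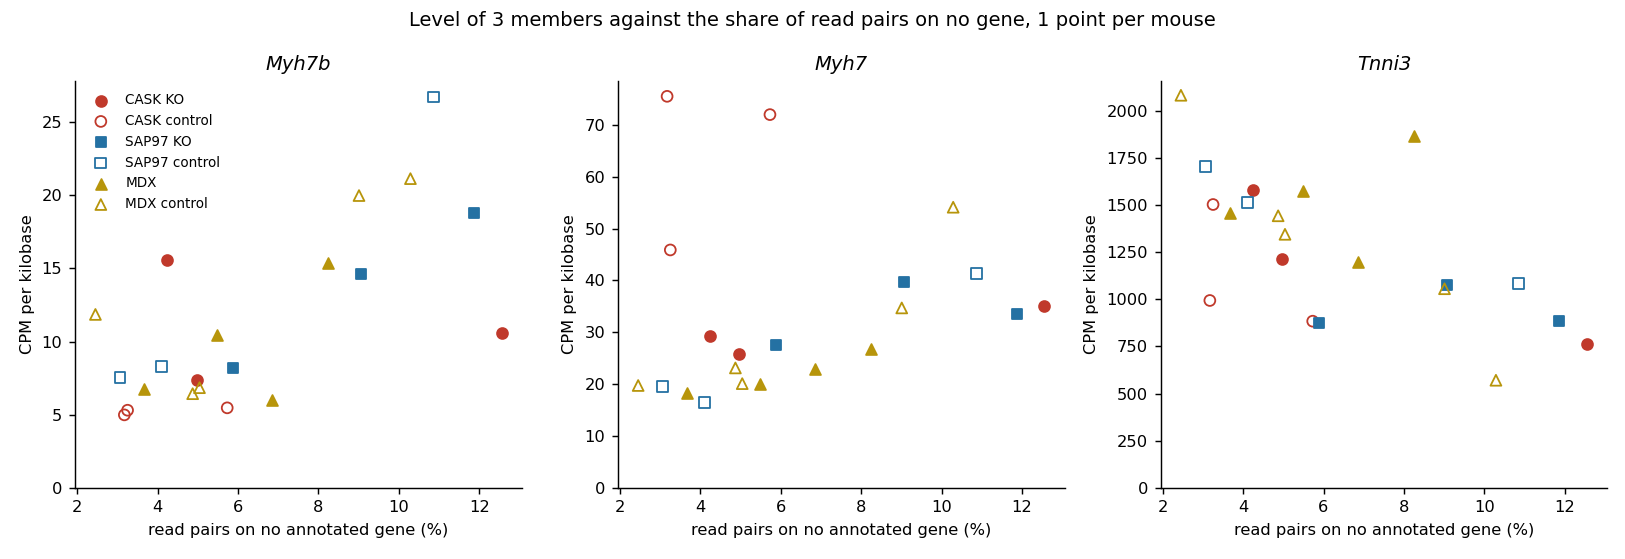
Levels of Myh7b, Myh7 and Tnni3 in CPM per kilobase (vertical) against the percentage of read pairs on no annotated gene (horizontal), with 1 point per mouse, filled for CASK KO, SAP97 KO and MDX and open for their controls. Myh7b is higher and Tnni3 lower toward the right (r = 0.682 and -0.652), and for Myh7 the CASK control mice stand above most others at a low percentage.

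Several members overlap other annotated genes. On the opposite strand, Gm31251 shares 12209 bases and the antisense RNA Mhrt 3666 bases with Myh7, Gm44646 shares 2568 bases with Mybpc2 and Gm49130 shares 932 bases with Myh6. In addition, Dnaaf3 shares 1297 bases with Tnni3 on the same strand, while Acta1 and Actc1 lie wholly within the spans of Gm20388 and A530058N18Rik on the opposite strand. The library kit kept strand, but whether counting used it is not given in the sources used here, so reads of such partners cannot be told apart. Mhrt, a cardioprotective long non-coding RNA in the mouse, was at 25.2 ± 7.94 CPM in CASK KO and 14.3 ± 3.48 CPM in CASK control mice (SD, n = 3 each). Its log2 fold change of 0.85 ± 0.27 (adjusted p = 0.400, edgeR) was opposite in sign to that of Myh7 in this line. In the MDX line the log2 fold changes of both were negative, that of Mhrt at -0.54 ± 0.53. MDX control 3 alone was at 74.4 CPM of Mhrt and was also the highest MDX control for Myh7. The other MDX control mice were at 8.44 to 23.3 CPM of Mhrt, and MDX mice at 15.0 to 24.2 CPM. The relation of Mhrt to Myh7 was not tested.

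The genes with the pattern most like a member were found by Pearson correlation of log2 CPM over the 21 libraries, among 12013 genes. For Acta1 these were Ankrd1, a stretch-responsive ankyrin-repeat protein (0.934), Pdzd3 (0.895) and Clu, the chaperone clusterin (0.894). For Mybpc2 they were Nppa, atrial natriuretic peptide (0.936), Rtn4 (0.933) and Gcnt1 (0.924). Spearman values for these were lower, at 0.768, 0.712 and 0.752, and CASK control mice stood apart from all other mice for Mybpc2. For Myh7 they were Slc22a4 (0.876), the kinase Syk (0.875) and Napepld (0.850), and for Tnni1 Pdzd3 (0.777), Azin1 (0.711) and Nudt16 (0.710). Among members, Acta1 was most like Mybpc2 (0.808) and Myh7 (0.759), and Myh7 least like Tnni3 (-0.645). These values are descriptions, since libraries of a group share their genotype.

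Beyond the 9 members, 20 other fetal, atrial, smooth or skeletal muscle isoforms were followed, of which 12, 9 and 10 could be tested in the CASK, SAP97 and MDX lines, and 0 passed an adjusted p of 0.01. At an unadjusted p under 0.05 (edgeR), 3 were lower and 0 higher in CASK KO, 3 were higher and 1 lower in SAP97 KO, and 3 were higher and 0 lower in MDX. Over all genes, 4.31% were lower and 4.53% higher in CASK KO, 4.69% higher and 3.28% lower in SAP97 KO, and 1.28% higher and 1.44% lower in MDX. Their median log2 fold changes were -0.55, -0.24 and 0.31, against 0.01, 0.03 and -0.01 over all genes. DESeq2 called 1 higher and 1 lower, both in SAP97, where it called 0.157% of all genes higher and 0.101% lower.

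The pair with the largest changes in each line is given here. Tnnt3, the fast skeletal troponin T, had 0.217 ± 0.192 CPM in CASK KO and 0.607 ± 0.129 CPM in CASK control mice. Myl1, a fast skeletal and fetal myosin light chain, had 10.8 ± 6.38 CPM in CASK KO and 24.4 ± 12.3 CPM in CASK control mice, and 12.7 ± 2.02 CPM in SAP97 KO and 24.5 ± 5.72 CPM in SAP97 control mice. Acta2, the smooth muscle alpha-actin, had 67.9 ± 19.4 CPM in SAP97 KO and 31.4 ± 11.6 CPM in SAP97 control mice, without overlap, and its log2 fold change was 1.15 ± 0.28 (adjusted p = 0.459, edgeR).

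In the MDX line Acta2 had 75.0 ± 20.6 CPM in MDX (n = 4) and 34.9 ± 12.9 CPM in MDX control mice (n = 5), where Acta1 was lower in MDX. Its log2 fold change of 1.102 ± 0.29 did not pass (adjusted p = 0.923, edgeR). Myl7, the atrial regulatory light chain, had 41.6 ± 26.9 CPM in MDX and 21.6 ± 7.69 CPM in MDX control mice.

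All 15 adult sarcomere genes could be tested, and 0 were called in any line, with median log2 fold changes of 0.03, -0.15 and -0.11 in CASK, SAP97 and MDX. At an unadjusted p under 0.05 in edgeR, 2 of 15 were lower in SAP97 KO, where 3.28% of all genes were, 0 were lower in the other lines, 0 were higher in any, and DESeq2 called 0. The largest changes in SAP97 KO were those of Myl2 and Myl3, the ventricular light chains, at -0.61 ± 0.21 and -0.44 ± 0.19 (adjusted p = 0.610 and 0.625, edgeR). In CASK KO they were those of Tnnc1 (-0.36) and Tpm1 (-0.21), and in MDX Actn2 was at -0.24, all with overlapping groups.

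Of 25 regulators of these switches, among them Srf, the TEAD factors, Gata4, Sox6 and the thyroid hormone receptors, 23 could be tested and 0 were called, with medians of 0.08, 0.14 and -0.05. In edgeR, 1, 2 and 1 were higher at an unadjusted p under 0.05 in CASK, SAP97 and MDX, against 4.53%, 4.69% and 1.28% of all genes, and 0 were lower. DESeq2 called 0. Dio2, which activates thyroid hormone, had the largest or second largest change in each line, at 0.805 ± 0.235 CPM in CASK KO and 1.43 ± 0.780 CPM in CASK control mice. It was at 0.601 ± 0.161 CPM in SAP97 KO and 0.192 ± 0.0912 CPM in SAP97 control mice, and at 0.609 ± 0.148 CPM in MDX and 0.308 ± 0.107 CPM in MDX control mice. Its log2 fold changes were -0.80 ± 0.48, 1.65 ± 0.54 and 0.94 ± 0.35 (adjusted p = 0.724, 0.610 and 1.00, edgeR), with groups apart in the SAP97 and MDX lines. Levels of Dio2 were near the floor, at 0.099 to 0.28 CPM in SAP97 control mice, and rest on few reads. Mkl1, a cofactor of serum response factor, had a log2 fold change of 0.44 ± 0.24 in SAP97 KO. That of Mhrt was -0.54 ± 0.53 in MDX, where MDX control 3 stood far above all other mice.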

How the data were processed

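Total RNA of ventricular cardiomyocytes, isolated on a Langendorff system, was depleted of ribosomal RNA and sequenced in pairs with a stranded kit. The sample labels also mention poly-A selection, and the strand setting of counting is not given in the sources used here. The submitters' processing notes name HTSeq (0.6.1) for counting, TopHat2 (2.0.13) for mapping, Bowtie2 (2.2.1) for removing ribosomal reads, FastQC (0.11.2) for quality and DESeq2 (1.10.1) for their tests. The deposited values used here are raw counts of read pairs per gene on GRCm38, made by the authors with HTSeq. Gene lengths are the authors' sums of exons. Deposited columns of the authors' own comparisons hold mean counts, fold changes and p-values and were not used. Reads on no gene are the authors' counts in their mapping summary and stayed out of library sizes and tests.

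Each line was tested in edgeR 4.0.16 (R 4.3.3) with filterByExpr, TMM and the quasi-likelihood test, with p-values adjusted by Benjamini-Hochberg over all genes tested. The threshold was an adjusted p of 0.01. DESeq2 1.42.0 was an alternative. Levels, the 6-group test and differences between lines came from 1 model of 21 libraries. It kept 45956 of the 46813 genes shared by the 3 comparisons, those whose counts under 2 annotation releases differed by at most 1.1 times. Libraries held 24253610 to 42159185 counts. Ratios were tested by exact permutation in scipy 1.17.1. Simulated data with large changes and the same fixed spread for every gene served as a check of the code. They do not measure power or false calls at the spread of these mice.

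Mice of the same replicate number deviated together in the CASK line (r = 0.453, 0.233 and 0.223 for numbers 1 to 3) but not throughout in the others, so values with the replicate block stand beside CASK results. In the MDX line r was 0.435 and 0.66 for numbers 4 and 5, but -0.0737 and 0.0658 for numbers 2 and 3. For numbers 1 to 3 of the SAP97 line it was 0.0114, 0.0957 and -0.345. The block was thus chosen for display from these same data. Whether same-numbered mice shared a day is not given in the labels.

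The members, lists and tests were chosen with earlier results of these data known. Named beside the 9 members were the 3 genes most correlated with Acta1, Myh7, Tnni1 and Mybpc2 among those averaging at least 1 CPM, and from each list the genes called in a line or else the 2 with the largest absolute log2 fold change. A gene that this rule named is not reported here. Promoter and miRNA sequences are from RefSeq on GRCm38.p6, matched by symbol, and all 9 members and 3 miRNAs matched. Alternatives were other normalization, no filter, the replicate block, leaving out each mouse, other pseudocounts and, in the MDX line, splits by background and by mice 4 and 5.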

Additional observations from a re-analysis of the deposited data

Results flagged for a closer look

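The change of Acta1 differed between the CASK and SAP97 lines, with a difference of log2 fold changes of -3.65 (adjusted p = 0.00816, edgeR). For Mybpc2 the difference was -2.55 between the CASK and SAP97 lines and -1.79 between the CASK and MDX lines (adjusted p = 9.05e-05 and 0.00288, edgeR). The Acta1 to Actc1 ratio moved in opposite directions without overlap, with log2 differences of -1.73 in the CASK line, 1.495 in the SAP97 line and -1.98 in the MDX line, and the difference of the ratio changes between lines was not tested. Of 26 sets of values, the 9 members and 4 ratios in MDX (4 mice) and in MDX control mice (5 mice), 0 held a value far from the others by Dixon's test, and groups of 3 mice were not examined.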

How the results depend on the processing

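The number of members called depended on the tool in each line, as did the number of all genes called. In the CASK line it was 0 in edgeR (0 of 14963 genes), 4 in DESeq2 (118 of 15857), 4 with no low-count filter (182 of 29934) and 2 with the replicate block (11 of 14963). In the SAP97 line it was 0 (3 of 14722 genes), 1 in DESeq2 (46 of 17788) and 2 with no filter (134 of 27567), and in the MDX line 0 (0 of 14994 genes), 1 in DESeq2 (19 of 18775) and 1 with no filter (6 of 32115). Over 6 groups it was 3 in DESeq2 (1052 of 19539 genes) and 4 with no filter (1190 of 33603), against 2 (332 of 15985). With no filter it was 4 in CASK control minus SAP97 control (476 of 33603 genes) and in CASK control minus MDX control (701 of 33603), against 2 in each (259 and 352 of 15985). For CASK minus MDX it was 0 with the replicate block (10 of 15985 genes), against 1 (12 of 15985). For SAP97 minus MDX it was 1 in DESeq2 (13 of 16983), with no filter (21 of 33603) and with the block (2 of 15985), against 0 (1 of 15985). The 6-group test was not run with the block. The cause of these shifts was not tested. Leaving out single mice gave 1 to 2 members called for CASK minus SAP97, where 20 to 77 of all genes were called. For CASK minus MDX it gave 0 to 1 members, where 3 to 24 of all genes were called. In the SAP97 line 2 to 4 members were without overlap, with 4 without SAP97 KO 3 or SAP97 control 2. This alternative was chosen after seeing the data and was not counted over all genes. Leaving out a mouse can only add to such a count for any set of genes. Myh7 in CASK control minus MDX control was called without MDX control 3 (adjusted p = 0.00727, edgeR).

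The Acta1 to Actc1 ratio in MDX had a log2 difference of -2.01 over pairs (exact permutation p = 0.125, the smallest that 4 pairs allow). Without the mixed-background mice it was -2.08 (exact permutation p = 0.0571, the smallest that the mice left allow), and the groups still did not overlap. The Tnni1 to Tnni3 ratio in MDX, taken as a share of both, gave -0.00236 percentage points (exact permutation p = 0.0476), and leaving out single mice moved its log2 difference between -1.52 and -0.86 (exact permutation p = 0.0286 without MDX control 4). Within mice 4 and 5 alone, the Myh7 to Myh6 ratio in MDX turned sign, to 0.0202, and the Tnni1 to Tnni3 ratio to 0.0174.

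Values near 0 changed sign. In MDX, Actc1 was -0.0096 in DESeq2, -0.015 with its size factors and -0.044 with the block, and Mybpc2 was 0.00136 without mixed-background mice. Myh7b in SAP97 was 0.17 with the block. Leaving out single mice gave -0.016 to 0.10 for Myh6 and -0.17 to 0.36 for Tnni3 in CASK, -0.13 to 0.035 for Actc1, -0.11 to 0.18 for Myh6 and -0.34 to 0.84 for Myh7b in SAP97, and -0.11 to 0.14 for Actc1, -0.084 to 0.049 for Mybpc2 and -0.057 to 0.13 for Myh6 in MDX. It gave -0.57 to 0.032 for Acta1 in CASK minus MDX, and -0.50 to 0.015 for Acta1, -0.20 to 0.031 for Mybpc2 and -0.74 to 0.072 for Myh7 in SAP97 control minus MDX control. Of the other comparisons of single genes under alternatives, 834 kept direction and call, 24 gained a call and 17 lost one. With 3 mice a group and 1 to 17 counts of Tnni1, small changes were beyond reach.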
